A study of Homo sapiens with 6 samples.

Results

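LRP5, FZD4 and TCF7 act at both ends of canonical WNT signalling, and DNA methylation in these genes was described in HepG2 cells from regions called by reduced representation bisulfite sequencing (RRBS), which reads CpG-rich fragments cut out by MspI. The regions were those of the 3 deposited lists of differentially methylated regions that overlapped 11:68311000-68450500 (LRP5), 11:86944000-86957000 (FZD4) or 5:134113000-134152000 (TCF7) on hg38, in either direction. The members were thus selected on the called difference in methylation level, as well as on position. This gave 10 of 4344 listed regions, 6 in LRP5, 2 in FZD4 and 2 in TCF7. Regions of different lists that overlapped by at least 1 bp were taken as the same place, which left 4 of 3313 distinct regions.

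HepG2 is an established human liver cancer line, and both groups carried a lentivirus. The DNMT3A overexpression group received a lentivirus carrying DNMT3A, an enzyme that methylates previously unmethylated CpG sites, and the control group, whose genotype label is WT, with a control lentivirus. Each group had 3 libraries, numbered 1 to 3, and each list set an overexpressing library against the control of the same number, called a pair here. The labels name neither the promoter of the vector nor whether the cells were clones or separate cultures, so differences between libraries of a group may be technical. The files hold no expression values, so neither the level of DNMT3A nor liver cell markers could be checked in them. Mapped reads ranged from 25764323 to 29924507 per library, but the reads behind a single region are not given, so its depth is unknown and no interval is printed for a level.

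In canonical WNT signalling, a WNT ligand binds a Frizzled receptor and the co-receptor LRP5 or LRP6 at the cell surface. This stops a cytoplasmic destruction complex from degrading beta-catenin, which then binds TCF/LEF factors on DNA and activates target genes. In liver the pathway is known for setting the metabolic zones of the lobule and for activating mutations of the beta-catenin gene CTNNB1 in hepatocellular carcinoma, and HepG2 itself is known to carry an activating in-frame deletion in that gene. Methylation is deposited on cytosines of CpG dinucleotides, and dense methylation at a gene's start is commonly associated with silencing, whereas methylation inside a transcribed gene is common.

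The start windows of the 3 genes are shown because they are the reference points for the listed regions. Each runs from 250 bases before to 50 bases after a RefSeq start site on GRCh38.p14 and is written 5′ to 3′ on the strand of the gene, with each CpG dinucleotide in capitals.
LRP5, chr11:68312341-68312640, plus strand: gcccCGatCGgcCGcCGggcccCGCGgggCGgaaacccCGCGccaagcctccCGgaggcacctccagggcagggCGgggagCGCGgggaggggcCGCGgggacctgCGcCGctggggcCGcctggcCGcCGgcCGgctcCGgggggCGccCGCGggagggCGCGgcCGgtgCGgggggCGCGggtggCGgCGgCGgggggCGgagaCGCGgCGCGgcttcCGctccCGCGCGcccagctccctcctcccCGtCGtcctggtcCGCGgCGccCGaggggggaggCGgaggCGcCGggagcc
FZD4, chr11:86955346-86955645, minus strand: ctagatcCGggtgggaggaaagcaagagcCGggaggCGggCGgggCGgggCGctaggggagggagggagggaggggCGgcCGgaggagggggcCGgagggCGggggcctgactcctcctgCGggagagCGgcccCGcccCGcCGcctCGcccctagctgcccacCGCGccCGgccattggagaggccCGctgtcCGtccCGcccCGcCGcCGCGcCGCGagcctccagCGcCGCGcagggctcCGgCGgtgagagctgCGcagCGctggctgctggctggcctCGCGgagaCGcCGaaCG
TCF7, chr5:134115363-134115662, plus strand: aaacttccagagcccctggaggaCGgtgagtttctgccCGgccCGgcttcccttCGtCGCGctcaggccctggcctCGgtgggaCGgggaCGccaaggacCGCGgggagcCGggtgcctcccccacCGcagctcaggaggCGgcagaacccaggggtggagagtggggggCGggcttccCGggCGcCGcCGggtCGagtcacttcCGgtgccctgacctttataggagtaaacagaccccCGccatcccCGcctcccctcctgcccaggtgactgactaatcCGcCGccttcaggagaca

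These windows hold 52 CpG dinucleotides in LRP5, 40 in FZD4 and 25 in TCF7, against a median of 14 over 35116 RefSeq start windows of the same length. The RefSeq extent of LRP5 begins 14179 bp before its start site used here and that of TCF7 7395 bp before, so distances below refer to the printed start windows and not to the outermost end of the gene. RefSeq gives TCF7 a second start window, chr5:134123368-134123667, with 3 CpG dinucleotides, whereas no listed region had fewer than 4 CpG sites. None of the 4 start windows overlapped a listed region. Over all lists 275 of 4344 regions (6.33%) overlapped any of the 35116 RefSeq start windows, so a window without a listed region was the usual case. Among higher regions it was 193 of 3546 (5.44%). A window without a listed region is one where no difference was called, which does not show that its methylation was the same in both groups. The MspI recognition site CCGG is a palindrome at which RRBS fragments begin. It occurred 7 times in the LRP5 window and 6 times in the FZD4 window. The first TCF7 window held it 6 times and the second TCF7 window 0 times. At least 1 CCGG was present in 63.1% of all start windows. The letters CTTTGAT, a core of the TCF/LEF binding motif whose letters cannot overlap CCGG, were searched on both strands and were in none of the 4 windows, as against 2.62% of all windows. The sequences of the listed regions themselves were not analysed here.

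The 10 regions were all higher in the DNMT3A-overexpressing library than in its control, 3 in pair 1, 4 in pair 2 and 3 in pair 3. Higher regions made up 82.1%, 81.7% and 81.1% of all regions in lists 1, 2 and 3, so a gain was the usual direction of a listed region. The members were chosen because the lists called them, so the differences below are descriptions and carry no test. Both LRP5 regions were listed in all 3 pairs, which holds for 7.97% of distinct regions when all directions are higher. The FZD4 region was listed in pairs 2 and 3 and the TCF7 region in pairs 1 and 2. Being higher in at least 2 pairs held for 19% of distinct regions.

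**Figure D1:**
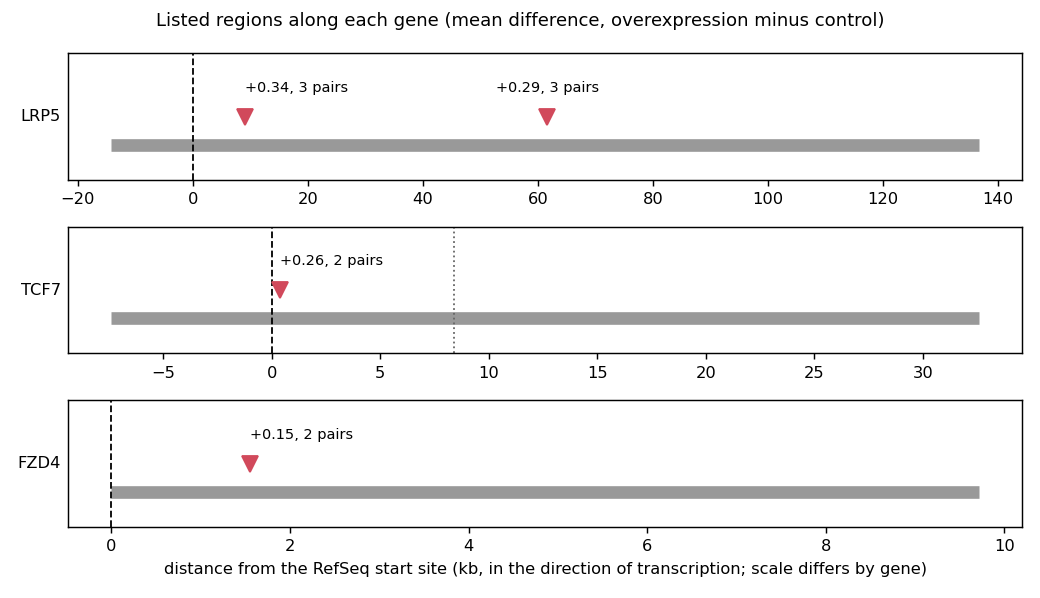
Position of the 4 distinct listed regions (triangles) along each gene, in kb from the RefSeq start site (dashed line) in the direction of transcription, with the gene's extent in grey and the second TCF7 start site dotted. The number beside each triangle is the mean difference in level, overexpression minus control. The TCF7 region sits next to its start site, and the second LRP5 region about mid-gene.

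LRP5 encodes the low-density lipoprotein receptor-related protein that serves as a WNT co-receptor, and its first region lay 8961 to 9061 bp downstream of the start site. The region spans 11:68321552-68321652, 101 bp inside LRP5 and also inside the long noncoding RNA gene LOC124900302. It had the same boundaries and 8 CpG sites in all 3 lists. Its level was 0.450, 0.432 and 0.424 in overexpressing libraries 1, 2 and 3, against 0.104, 0.0988 and 0.0959 in control libraries 1, 2 and 3. All overexpressing libraries were far above all controls, and the libraries of a group stood close together. The mean was 0.435 ± 0.0134 in overexpressing and 0.0996 ± 0.00427 in control libraries (SD, n = 3 each), a mean fold of 4.37 within pairs.

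The difference at this first LRP5 region, 0.336 ± 0.00912 (SD, n = 3 pairs), varied little from pair to pair. Among the 264 distinct regions that were higher in all 3 pairs, 7.95% had a smaller SD of the difference, and the median SD was 0.0322. Its length of 101 bp was close to the medians of 102 to 105 bp over higher regions in the 3 lists, but at 7.92 CpG sites per 100 bp it was sparser in CpG, below the medians of 10.7 to 10.9 over higher regions in the 3 lists. Its difference was larger than that of 74.7%, 72.4% and 72.8% of the higher regions in lists 1, 2 and 3.

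The second LRP5 region lay near the middle of the gene, 61412 to 61792 bp downstream of the start site, and held the most CpG sites of the 4. It was called at 11:68374122-68374383 in pair 1, at 11:68374003-68374286 in pair 2 and at 11:68374091-68374383 in pair 3, with 37, 39 and 39 CpG sites. All 3 calls share 165 bp. Because the boundaries differ, the levels of the 3 pairs rest on partly different CpG sites. Levels of overexpressing libraries 1, 2 and 3 were 0.692, 0.720 and 0.735, and those of control libraries 1, 2 and 3 were 0.437, 0.448 and 0.398. The groups did not overlap, and pair 3 had both the highest overexpressing and the lowest control level. Means were 0.715 ± 0.0217 in overexpressing and 0.428 ± 0.0264 in control libraries (SD, n = 3 each).

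At the mid-gene region of LRP5 the difference was 0.255, 0.272 and 0.337 in pairs 1, 2 and 3, with a mean of 0.288 ± 0.0432 (SD, n = 3 pairs). Of the 264 regions higher in all 3 pairs 53.4% had a smaller mean difference, and their median was 0.280. The authors' area score, a per-region statistic whose definition is not given in the sources used here, ranked this region 61st of 1217, 39th of 1171 and 27th of 1158 higher regions in lists 1, 2 and 3. More than 95% of higher regions in each list had fewer CpG sites, with shares of 95.3%, 95.1% and 95.7%. The first LRP5 region ranked 708th, 726th and 758th by the same score although its difference was the larger one in pairs 1 and 2. In pair 3 the difference was 0.328 at the first and 0.337 at the mid-gene region.

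FZD4 encodes a Frizzled receptor for WNT ligands and for norrin, for which it acts together with LRP5 and the tetraspanin TSPAN12 in retinal blood vessels. Its region, 11:86953778-86953911, lies inside the gene, 1484 to 1617 bp downstream of the start site, and within 1 kb of an end of PRSS23, a serine protease gene. Both calls had the same 134 bp and 15 CpG sites. The level was 0.219 and 0.201 in overexpressing libraries 2 and 3, against 0.0631 and 0.0475 in control libraries 2 and 3. Both overexpressing libraries were above both controls, and all 4 values were low. The differences of 0.156 and 0.153 were smaller than most: 12.9% and 11.0% of the higher regions in lists 2 and 3 had a smaller one, and the medians of those lists were 0.266 and 0.265. As folds they were 3.47 and 4.22, above the list medians of 2.44 and 2.43. Pair 1 listed no region in FZD4, so no level is known there for overexpressing library 1 or control library 1.

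TCF7 encodes TCF-1, a DNA-binding partner of beta-catenin best known from T cells, and held the most methylated of the 4 regions. This region begins 308 bp downstream of the TCF7 start site of the printed window and 259 bp beyond the end of that window, and it lies upstream of the second start site. It was called at 5:134115921-134116047 with 16 CpG sites in pair 1 and at 5:134115921-134116020 with 11 in pair 2. The call of pair 2 lacks the last 27 bp and has 5 fewer CpG sites. Levels were 0.811 and 0.826 in overexpressing libraries 1 and 2, against 0.523 and 0.602 in control libraries 1 and 2. Overexpressing libraries were above the controls here too, and the 2 controls were further apart than the 2 overexpressing libraries. The differences were 0.288 and 0.224, a mean of 0.256. The 2 calls cover different sets of CpG sites, and the part of this in the gap between pairs was not tested. Pair 3 listed no region in TCF7.

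**Figure D2:**
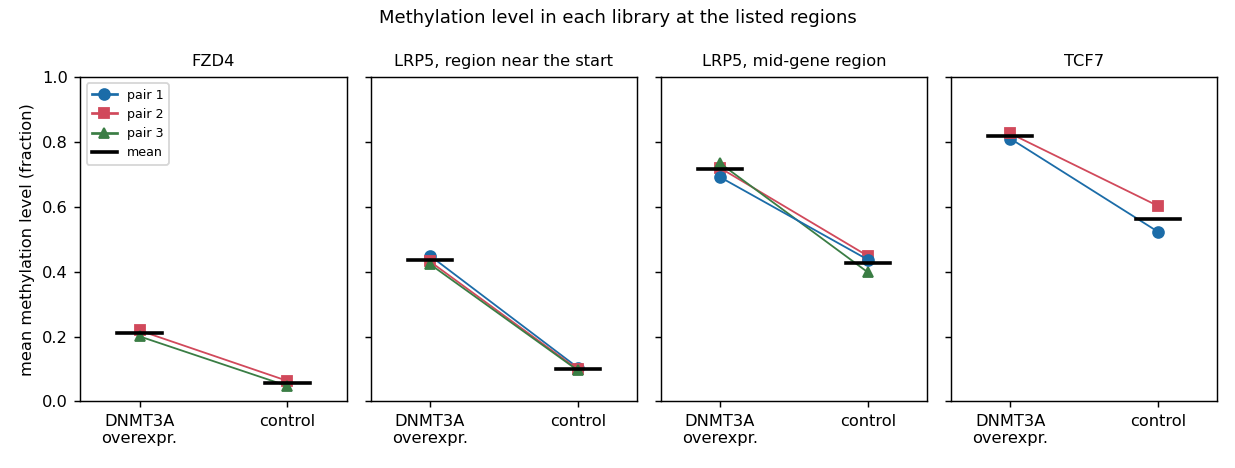
Mean methylation level (fraction) of each listed region in each library, DNMT3A overexpression left and control right, with lines joining libraries of the same number and black bars for the mean. In every panel all overexpressing libraries with a value lie above all controls, from about 0.2 in FZD4 to over 0.8 in TCF7.

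At all 4 regions every overexpressing library with a level lay above every control. The same was true of 260 of the 272 distinct regions listed in all 3 pairs (95.6%), of which 264 were higher in all 3. It was also true of 361 of the 451 regions listed in exactly 2 pairs (80%). Both totals include regions that were not higher in every pair listing them, which cannot meet this criterion. These genes are therefore ordinary in this respect among recurrent calls. The smallest gap between the groups was 0.137 in FZD4, and the gaps were 0.208 in TCF7, 0.244 at the mid-gene LRP5 region and 0.319 at the first LRP5 region.

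The order of the 4 regions was the same in both groups, with FZD4 lowest, then the first LRP5 region, the mid-gene LRP5 region and TCF7. No 2 neighbours in this order overlapped in either group. In overexpressing libraries the highest FZD4 value was 0.219 and the lowest value of the first LRP5 region 0.424, and in controls these values were 0.0631 and 0.0959. The closest neighbours among overexpressing libraries were the mid-gene LRP5 region and TCF7, whose nearest values were 0.735 and 0.811. Those neighbours stood at 0.448 and 0.523 in controls. FZD4 and TCF7 have values from 2 pairs each, and not the same 2.

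The size of the gain depended on how it was expressed. As a difference it was largest at the first LRP5 region and smallest in FZD4. As a share of the methylation still missing in the control, the difference divided by 1 minus the control level, it was 58.3% in TCF7, 50.1% at the mid-gene LRP5 region, 37.3% at the first LRP5 region and 16.3% in FZD4, as means over pairs. Over all higher regions the median of this share was 36.8%, 37.6% and 37.9% in lists 1, 2 and 3. FZD4 was therefore low and TCF7 and the mid-gene LRP5 region high on this scale, whereas the first LRP5 region was close to the median. The order by this share was also the order of the control levels. The medians cover higher regions of all control levels, so they do not compare a region with others of a like control level. As a fold the order was the first LRP5 region (4.37), FZD4 (3.84), the mid-gene LRP5 region (1.68) and TCF7 (1.46).

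**Figure D3:**
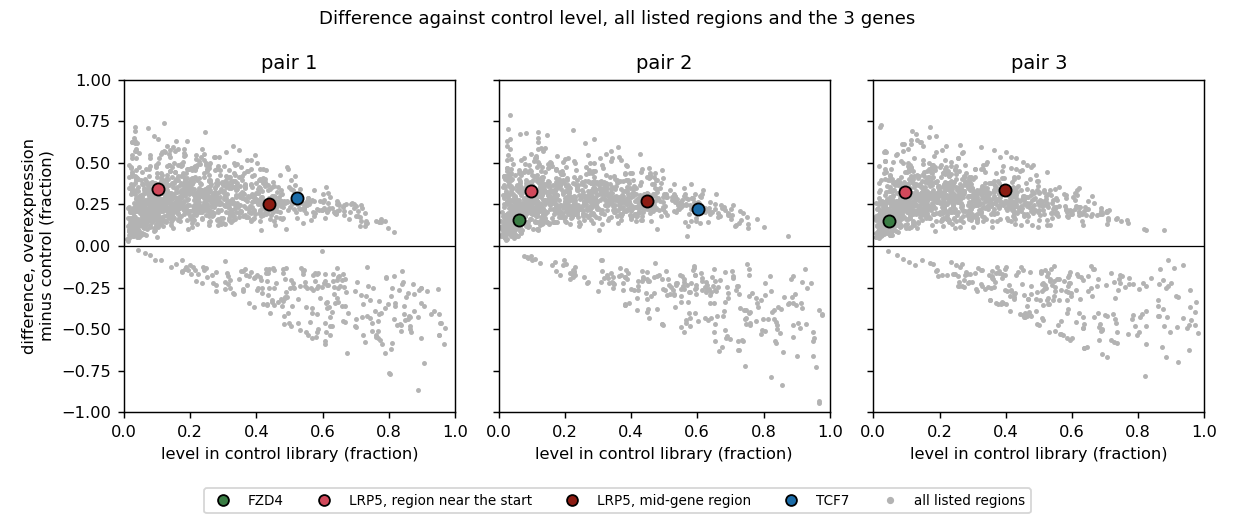
Difference in level (overexpression minus control) against the control level, 1 panel per pair, for all listed regions (grey) and the regions of FZD4, LRP5 and TCF7 (coloured). The coloured points span control levels from 0.0475 to 0.602 and lie within the grey cloud of higher regions.

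Control levels of the members covered much of the range seen at higher regions. In TCF7 92.1% and 95.8% of higher regions in lists 1 and 2 had a lower control level, and at the mid-gene LRP5 region the share was 86.3%, 86.3% and 79.6% in lists 1, 2 and 3. In FZD4 it was 19.5% and 12.2% in lists 2 and 3. Over all higher regions of lists 1, 2 and 3 the median level was 0.505, 0.508 and 0.523 in overexpressing libraries, against 0.184, 0.192 and 0.209 in controls.

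Beyond the 3 gene windows, the nearest listed regions were all in single pairs. The one nearest to the LRP5 window lay 28659 bp below it, at 11:68282270-68282341, with 0.376 in overexpressing and 0.134 in control library 3. Next to the TCF7 window the nearest was 32800 bp below, in VDAC1, with 0.403 and 0.160 in overexpressing and control library 1. For FZD4 it was 90441 bp above, in TMEM135, with 0.950 and 0.718 in overexpressing and control library 1. Each of these neighbours was higher. On the other side of the windows the nearest listed region was 419736 bp away for LRP5, 493775 bp for TCF7 and 4210188 bp for FZD4.

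Regions elsewhere in the genome with the most similar levels were found by the root mean square difference over the libraries concerned. For the mid-gene LRP5 region, over 6 libraries and 271 candidate regions, these lay in or near ANKRD11 (0.0382), LINC00261 (0.0385) and ASAP2 (0.0408). The nearest to TCF7, over 4 libraries and 440 candidates, were ST3GAL2 (0.0289), TUBB1 (0.0300) and a region with no gene within 1 kb at 9:71777839-71777973 (0.0351). METRNL stood closest to FZD4, at 0.00362 over 4 libraries and 397 candidates, followed by SLC35D4 (0.0152) and JMY (0.0193).

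The rest of the WNT pathway was counted over LRP5, FZD4 and TCF7 and 109 other genes in 8 roles, all of them present in the RefSeq gene table. Of the whole list 21 genes had a listed region within 1 kb in at least 1 pair, 17 with higher regions only and 4 with lower regions only. A listed region was found for 8.84% of 20056 protein-coding genes, against 18.8% of the list and 16.5% of its 109 genes other than LRP5, FZD4 and TCF7. The list was chosen with earlier results of these data known, so leaving out those 3 genes does not make its share independent of the calls. Genes also differ in length and in the number of CpG-rich fragments that RRBS reads, and their part in these shares was not tested. A region higher in at least 2 pairs was found for 5 list genes, which include LRP5, FZD4 and TCF7, and for 2.01% of all protein-coding genes. Without those 3 genes it was 2 of 109, or 1.83%, close to the share over all genes. No list gene had a region lower in at least 2 pairs, against 0.16% of all genes.

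Both other recurrent genes encode nuclear partners of the pathway. BCL9L, a co-activator that bridges beta-catenin to Pygopus proteins, had a region at 11:118909271-118909505 listed in all 3 pairs. Its level was 0.688, 0.648 and 0.639 in overexpressing libraries 1, 2 and 3, against 0.342, 0.363 and 0.369 in control libraries 1, 2 and 3, a mean difference of 0.300 ± 0.0403 (SD, n = 3 pairs). The groups did not overlap, and the levels were between those of the 2 LRP5 regions. TLE5, a short member of the Groucho/TLE co-repressor family, had a region at 19:3061318-3061433 listed in pairs 1 and 2. Overexpressing libraries 1 and 2 stood at 0.372 and 0.459, against 0.210 and 0.275 in control libraries 1 and 2.

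By role, nuclear factors had 5 of 17 genes with a listed region, all higher: TCF7, BCL9L, TLE5, TCF7L2 and TLE3. Receptors and co-receptors had 3 of 17, also all higher, namely LRP5, FZD4 and ROR2, a receptor tyrosine kinase that binds WNT5A. These counts include TCF7, LRP5 and FZD4, which were chosen by their calls, and TCF7L2, TLE3 and ROR2 were each listed in 1 pair only. Over all protein-coding genes the share with a listed region was 8.84%, and differences between roles were not tested. TSPAN12 and the norrin gene NDP, whose products work with FZD4 and LRP5, had no listed region, and neither had LRP6, the other co-receptor. Among 19 ligand genes WNT3, WNT9A and WNT9B were higher and WNT10A was lower, each in 1 pair. In the role of extracellular inhibitors and ligands of receptors, DKK1 and KREMEN1 were higher and APCDD1 and NOTUM lower, each in 1 pair. The destruction complex scaffolds AXIN1 and AXIN2 were each higher in 1 pair, and of the target genes CCND1 was higher and JUN lower, also in 1 pair each. Over the list apart from LRP5, FZD4 and TCF7 there were 15 higher and 4 lower distinct regions, and over all distinct regions 77.2% were higher in every pair that listed them.

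**Figure D4:**
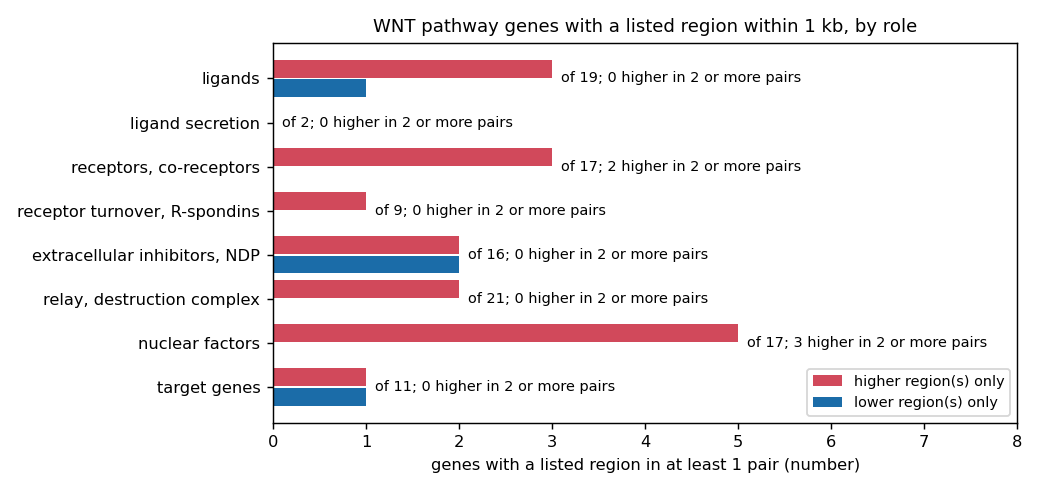
Number of WNT pathway genes in each role with a listed region within 1 kb in at least 1 pair, higher regions only (red) and lower regions only (blue), with the number of genes in the role beside the bars. The genes higher in at least 2 pairs are LRP5 and FZD4 among receptors, and TCF7, BCL9L and TLE5 among nuclear factors; LRP5, FZD4 and TCF7 were chosen by their calls, and without them receptors have 0 such genes and nuclear factors 2.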

How the data were processed

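RRBS was done on genomic DNA cut with MspI and treated with bisulfite, per the labels' protocols. Coordinates are on hg38 (submitters' processing notes). For the aligner, the region caller and the call thresholds nothing is stated in the sources used here. Per the file headers, the authors gave each region's mean methylation level in both libraries as a fraction, a signed difference and an area score. The deposited counts are CpG sites per region and reads per library, and the mapping rate is the authors' percent value. Regions were merged across lists with Python 3.11.15, pandas 2.3.3 and numpy 2.4.6, and the merging was tested on simulated regions. Had a pair had several regions at one place, their mean weighted by CpG sites would have been used; none of the 4 member regions needed it. Gene extents and start windows are from RefSeq GRCh38.p14, which gives no exons here. Every member region was named, with the 3 most similar regions per gene and each list gene higher in at least 2 pairs. Members and gene list were chosen with earlier results of these data known, and a called region's difference tends to exceed a fresh measurement's. No test was run, because the choice of members used the calls.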

Additional observations from a re-analysis of the deposited data

How the results depend on the processing

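No paired analysis was possible because no test was run, as the members were chosen by the same calls; within-pair differences and their SDs are given as descriptions. With a pair left out in turn, the mean difference ranged from 0.331 to 0.339 at the first LRP5 region, 0.263 to 0.304 at the mid-gene LRP5 region, 0.153 to 0.156 in FZD4 and 0.224 to 0.288 in TCF7. Listed regions then numbered 4 in LRP5 and 1 to 2 in TCF7 and in FZD4, and list genes higher in at least 2 pairs 2 to 4. With only differences of at least 0.2 no FZD4 region remained (0), and list genes numbered 9 with a region and 3 with one higher in at least 2 pairs. Shares over all protein-coding genes are not given for these settings. Whether the list differed there from other genes is therefore not known. With at least 10 CpG sites LRP5 kept 3 regions. Of 59 alternative values, 49 stayed within 1.5 times the count or 1 SD of the difference, but many of these were fixed in advance. For 8 the setting changed nothing (an unweighted mean where each pair has 1 region, or leaving out a pair that does not list the region). Leaving out 1 of 2 or 3 pairs also cannot shift a mean difference by more than 1 SD. A count of 0 cannot rise when pairs or regions are left out. The 49 of 59 is therefore no measure of how stable the results are. No depth per region is given, so thin coverage cannot be told from deep coverage.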
